A study of Mus musculus with 72 samples.

Results

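The 36 genes described here code for enzymes and transporters of glycolysis, gluconeogenesis and glycogen turnover, including the isoforms made by male germ cells. They were chosen by symbol from a fixed list, and all 36 were found in each of 7 count tables that together name 37108 gene symbols. RNA was measured by bulk RNA-Seq in 72 mouse libraries. F1 animals had CF-1 mothers and SJL/B6 fathers from a GFP-carrying stock and were conceived either by natural mating (naturals), without embryo transfer, or by IVF, in which eggs of superovulated CF-1 females were fertilized in vitro, embryos were cultured to blastocysts in KSOM+AA at low oxygen, and blastocysts were transferred to pseudopregnant CF-1 recipients. F1 testes were taken at E18.5 (4 naturals, 6 IVF), 12 weeks (5 and 5) and 39 weeks (4 and 6). F1 pups raised to adulthood were delivered by cesarean section, slightly later in gestation for IVF, and fostered. F2 animals were sired by naturals or by males conceived by IVF, with naturally mated CF-1 females as mothers in both groups, so that F2 IVF animals descend from IVF through the father and were not conceived in vitro themselves. F2 samples were taken at 12 weeks from testis (5 naturals, 7 IVF), male liver (5 and 5), female liver (5 and 6) and ovary (4 and 5). Per the methods, seminiferous tubules from a testis of each adult F1 male were frozen, while RNA is said to come from a piece of testis, so which of them was sequenced is not settled. Nothing in the labels ties a liver to a gonad of the same animal, and p-values describe the spread between these samples. The paper counted F2 pups from 4 breeding pairs per group, and the labels give no sire or litter. F2 animals of a group may thus share a sire or a litter, and the p-values do not measure the spread between sires.

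Total counts per library ran from 543745, in IVF male liver 3, to 90441392, in an IVF female liver. Adult testes had 11438213 to 27346141 counts and E18.5 testes 2904727 to 15745480, with the 4 naturals below every IVF library. Both mates of a read pair appear to have been counted, so counts are fewer independent fragments than they appear. Counting intervals and floors cover counting error only. Each tissue carried the markers of its label, though not every list separated the tissues. Summed spermatid markers were 13530 to 15230 CPM (counts scaled to the library's total) in 12-week natural testes and 2.75 to 5.85 at E18.5, and summed hepatocyte markers were 79040 to 102600 in natural male livers. The Sertoli list summed to 1735 to 1923 CPM in natural male livers and 728.6 to 884.7 in 12-week natural testes. The spermatogonia list summed to 138.7 to 154.2 and 75.77 to 85.39 CPM in them. Natural male livers 1, 4 and 5 also held spermatid transcripts (summed markers of 90.1, 16.9 and 128 CPM, against 0.0559 and 0.126 in naturals 2 and 3), and E18.5 natural 1 held the hepatocyte transcript Alb at 360.2 CPM against 0.127 to 10.7 in the other 9. F2 testes of naturals 1 and 2, of IVF 3 and 4, and 39-week testes of naturals 1 and 2 were closer to each other than any other pair of one group, though not within counting noise, and were kept apart.

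Glycolysis splits glucose into pyruvate and yields ATP without oxygen. Gluconeogenesis runs the path backwards with 4 enzymes of its own, and in the adult the liver is its main site, from which glucose leaves for the blood. Spermatogenic cells are known for replacing several of the housekeeping enzymes with isoforms of their own from meiosis onward. Pgk2 is an intronless copy of the X-linked Pgk1, Gapdhs is tied to the fibrous sheath of the sperm tail, and Ldhc is the lactate dehydrogenase of sperm. Eno4 is the enolase of the sperm tail. Sperm motility in the mouse depends on this glycolysis in the tail.

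Sequences upstream of the start sites are given for the kinase and dehydrogenase families because each pairs a housekeeping gene with a germ-cell gene whose levels are described next. Pgk2 lies at chr17:40207015-40208640 (− strand) and Pgk1 at chrX:106187100-106203699 (+ strand), while Ldhc at chr7:46861203-46878142 and Ldha at chr7:46841475-46855627 are neighbours on the + strand (mm10, GENCODE M21). Each line holds 300 bases of the RefSeq table for GRCm38.p6 (the build called mm10), 250 before and 50 after the first-listed start, read 5′ to 3′ on the gene's strand, with each CG dinucleotide in capitals.
Pgk1, chrX:106186850-106187149: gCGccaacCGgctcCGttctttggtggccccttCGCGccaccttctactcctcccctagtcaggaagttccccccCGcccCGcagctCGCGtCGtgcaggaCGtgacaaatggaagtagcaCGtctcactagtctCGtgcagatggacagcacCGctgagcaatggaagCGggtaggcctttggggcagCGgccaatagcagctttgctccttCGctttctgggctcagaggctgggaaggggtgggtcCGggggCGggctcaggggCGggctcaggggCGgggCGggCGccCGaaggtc
Pgk2, chr17:40208560-40208859: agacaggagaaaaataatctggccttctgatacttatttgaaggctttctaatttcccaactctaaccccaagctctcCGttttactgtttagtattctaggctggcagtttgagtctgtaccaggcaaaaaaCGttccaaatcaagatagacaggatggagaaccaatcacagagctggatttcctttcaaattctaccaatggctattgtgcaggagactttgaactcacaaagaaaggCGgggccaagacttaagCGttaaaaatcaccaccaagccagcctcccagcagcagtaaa
Ldha, chr7:46845554-46845853: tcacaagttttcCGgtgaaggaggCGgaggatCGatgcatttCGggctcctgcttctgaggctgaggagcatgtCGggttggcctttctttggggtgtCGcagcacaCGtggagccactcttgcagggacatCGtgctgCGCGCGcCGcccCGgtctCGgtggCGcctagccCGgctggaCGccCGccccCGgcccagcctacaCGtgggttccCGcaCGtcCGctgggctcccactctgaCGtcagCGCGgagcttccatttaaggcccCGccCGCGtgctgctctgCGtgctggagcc
Ldhc, chr7:46861013-46861312: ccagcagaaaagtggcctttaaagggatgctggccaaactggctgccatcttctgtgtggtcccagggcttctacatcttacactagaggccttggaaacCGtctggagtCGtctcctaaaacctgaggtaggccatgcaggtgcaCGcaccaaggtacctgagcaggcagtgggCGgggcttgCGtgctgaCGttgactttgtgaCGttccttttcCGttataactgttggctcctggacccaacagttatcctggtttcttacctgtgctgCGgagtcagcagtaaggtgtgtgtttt

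The window of Pgk1 held 24 CG dinucleotides and that of Pgk2 held 4. The Ldha window held 30 and the Ldhc window 9. Of the 36 genes, 34 had an entry, with a median of 13 CG, against 7 over 27025 first-listed promoters, of which 94.2% held at least 1. Pgam2 had 1 and its partner Pgam1 had 30, and Gapdhs had 4 against 12 for Gapdh. Eno4 had 24, and the listed starts of Eno1 had 14 to 25. Ldha and Ldhc each have a second listed start, with 13 and 3 CG. The counts describe these windows only.

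The question asked first was which isoform each tissue used. In naturals, adult testis stood apart from the other tissues by its germ-cell genes. In whole tissue, more cells of a type and more RNA per cell cannot be told apart. Levels are given as TPM, which are scaled to exon length and library total, so that genes can be compared. Pgk2, the phosphoglycerate kinase of meiotic and later germ cells, reached 1411, 1326, 1359, 1307 and 1327 TPM in the 5 natural testes at 12 weeks. It had 0 counts in all 4 natural testes at E18.5, where 3 counts, the limit a count of 0 allows, equal 0.616 to 1.03 CPM. At 39 weeks natural testes had 1029, 994, 1008 and 972 TPM, and F2 natural testes 1434, 1459.8, 1418, 1438 and 1364 TPM. Natural ovaries had at most 0.299 TPM, so that every adult testis lay far above them. Pgk1, the housekeeping kinase, was at 7.58 ± 1.09 TPM (SD, n = 5) in 12-week testis and 76.6 ± 9.45 (n = 4) at E18.5. Pgk2 made up 99.4% ± 0.0860 (SD) of phosphoglycerate kinase TPM at 12 weeks, 99.4% ± 0.189 at 39 weeks and 99.5% ± 0.0380 in F2 testis.

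Gapdhs, the glyceraldehyde-3-phosphate dehydrogenase of the sperm tail, had 2499, 2640.2, 2697, 2499 and 2475 TPM in 12-week natural testes and 4.51, 14.95, 12.2 and 7.94 TPM at E18.5. Gapdh, its somatic partner, had 69.9, 79.5, 100.3, 73.8 and 84.8 TPM at 12 weeks and 1001, 691, 621 and 620.0 TPM at E18.5. The 2 genes changed places, and Gapdhs accounted for 96.9% ± 0.357 of the family at 12 weeks against 1.44% ± 0.754 at E18.5. In ovary the share of Gapdhs was 1.34% ± 0.0827, a low but measured level of 14.3 to 17.0 TPM in the 4 naturals. Pgam2, known as the mutase isoform of muscle and testis, had 2916, 2503, 2294, 2522 and 2604 TPM at 12 weeks and 5.17, 6.18, 8.60 and 3.79 at E18.5. It made 99.5% ± 0.0750 of mutase TPM in 12-week testis, against 9.02% ± 1.61 in ovary and 14.2% ± 9.80 in male liver. In that liver group the share was 21.1% and 27.9% in naturals 1 and 5, which held the most spermatid transcripts, and 8.99%, 6.75% and 6.04% in naturals 2, 3 and 4. Pgam1, Gapdh, Pgk1 and other housekeeping members have processed copies in the genome, and how reads that fit several places were counted is not given in the sources used here, so their absolute levels are uncertain.

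**Figure D1:**
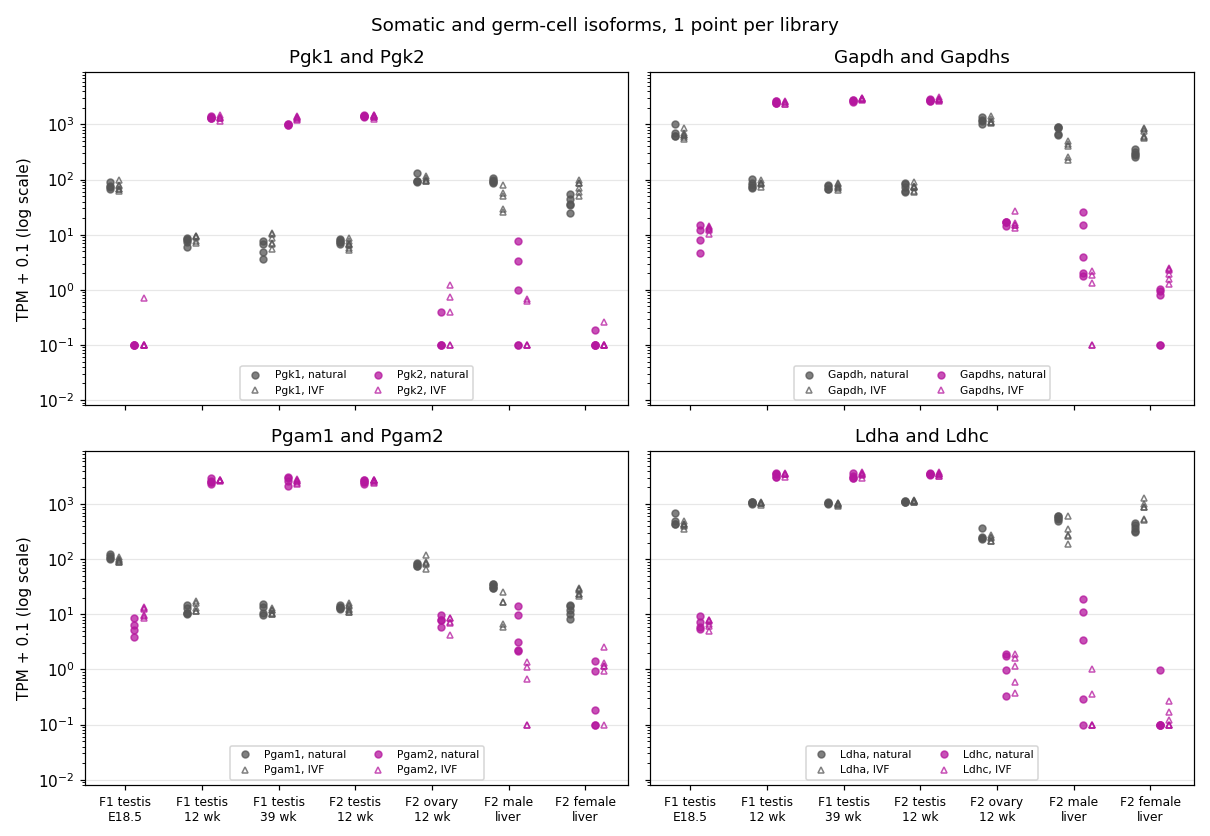
TPM + 0.1 on a log axis for 4 housekeeping genes (grey) and their germ-cell partners (magenta) in each experiment, 1 point per library (filled circles, naturals, open triangles, IVF). The magenta points lie above the grey points in the adult testes of all 4 panels and below them in E18.5 testis, ovary and liver, and the points of naturals and IVF in testis and ovary lie close together.

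Lactate dehydrogenase differed from these families, since the somatic gene stayed high in the adult. Ldhc had 3445, 3054, 3135, 3579.5 and 3617 TPM in 12-week natural testes and 5.29, 7.10, 5.80 and 9.30 at E18.5. Ldha, which turns pyruvate into lactate in most tissues, had 1099, 1006, 1072, 1044 and 1107 TPM at 12 weeks and 684, 497, 434 and 444 at E18.5, so that both were higher in the adult. The share of Ldhc was 74.8% ± 1.18 at 12 weeks, 74.0% ± 1.48 at 39 weeks and 75.4% ± 0.745 in F2 testis. Ldhb, the isoform of oxidative tissues, had 33.0% ± 3.01 of the family at E18.5 and 50.8% ± 5.75 in ovary but 1.51% ± 0.103 in 12-week testis. In liver Ldha made 98.4% ± 1.58 in natural males and 99.2% ± 0.359 in natural females.

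Among the enolases no isoform took over. Eno1, the housekeeping gene, had 50.5% ± 3.25 of the family in 12-week testis, Eno3, the muscle isoform, 36.4% ± 2.44, and Eno4 12.98% ± 1.77. Eno4 had 46.1, 56.4, 59.3, 46.3 and 44.2 TPM at 12 weeks and 1.41, 2.27, 1.97 and 3.31 at E18.5. The level of Eno4 was thus far below those of Pgk2, Gapdhs and Ldhc in the same libraries. At E18.5 Eno1 had 85.1% ± 5.74, and Eno2, the neuronal isoform, was at 17.1 ± 5.07 TPM there and 0.546 ± 0.415 at 12 weeks.

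The upper part of the path and glucose entry also differed between fetal and adult testis. Slc2a3, a high-affinity glucose transporter, was at 46.1 ± 8.75 TPM at E18.5 and 946 ± 41.8 at 12 weeks, where it had 99.3% ± 0.114 of the TPM of the 3 transporters. Slc2a1, the transporter of most growing cells, was at 71.9 ± 11.6 TPM at E18.5 and 6.81 ± 0.970 at 12 weeks. Hk1, a hexokinase that traps glucose in the cell, was at 63.1 ± 8.87 TPM at E18.5 and 775 ± 27.3 at 12 weeks, and Hk2 went from 107 ± 12.9 to 15.9 ± 2.70. Counts per gene do not separate the transcripts of Hk1 or Aldoa that germ cells are known to make from their somatic ones. Among the phosphofructokinases, which commit sugar to glycolysis, Pfkl had 62.0% ± 3.22 at E18.5 and 5.09% ± 0.793 at 12 weeks, while Pfkp went from 5.79% ± 1.01 to 35.1% ± 2.298. Aldoa, the aldolase of most tissues, was at 1429.7 ± 256 TPM at E18.5 and 622 ± 12.6 at 12 weeks, and Aldoc, the brain isoform, had 1.16% ± 0.444 of the 2 at 12 weeks and 9.57% ± 1.76 in male liver. Gpi1, which isomerizes glucose 6-phosphate, was at 187 ± 17.7 TPM at E18.5 and 393 ± 11.1 at 12 weeks. Pyruvate kinase in testis and ovary was Pkm, with 99.8% ± 0.149 at E18.5.

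Fbp1, a fructose-1,6-bisphosphatase of gluconeogenesis, was high in both adult testis and liver. Fbp2, the muscle isoform, was at most 4.04 TPM on average in any natural group. Natural testes at 12 weeks had 612, 565, 571, 651 and 549.5 TPM and natural male livers 652, 816, 764, 824 and 760.5 TPM, against 9.79, 5.26, 1.95 and 7.18 at E18.5 and 4.35, 7.00, 4.30 and 3.51 in ovary. The other enzymes of the path that makes glucose were low in testis. Pck1, which makes phosphoenolpyruvate in the cytosol, was at 0.342 ± 0.214 TPM in 12-week testis, and G6pc, which releases free glucose, at 0.0244 ± 0.0545. In natural male livers Pck1 was at 776 to 3015 TPM and G6pc at 177 to 358. Pcx, pyruvate carboxylase, was at 25.9 ± 1.69 TPM in testis, 334 ± 13.5 in male liver and 201 ± 66.4 in ovary. Pck2, the mitochondrial isoform of Pck1, was highest in ovary at 48.2 ± 2.82 TPM, followed by E18.5 testis at 33.7 ± 2.64. Male and female livers came from separate tables, and their levels are not set against each other.

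Liver used its own isoforms at each end of the path. Pklr, liver pyruvate kinase, made 90.9% ± 0.908 of the family in natural males and 91.6% ± 3.14 in natural females, and at most 0.603% in any natural ovary. Slc2a2, the low-affinity transporter of liver, made 88.6% ± 2.27 and 94.6% ± 2.59. Gys2, liver glycogen synthase, was at 89.1 ± 22.0 TPM in natural male liver and Pygl, liver glycogen phosphorylase, at 263 ± 8.76. In natural female liver Hk1 and Hk2 were low (0.503 to 1.11 and 0.0615 to 0.435 TPM).

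**Figure D2:**
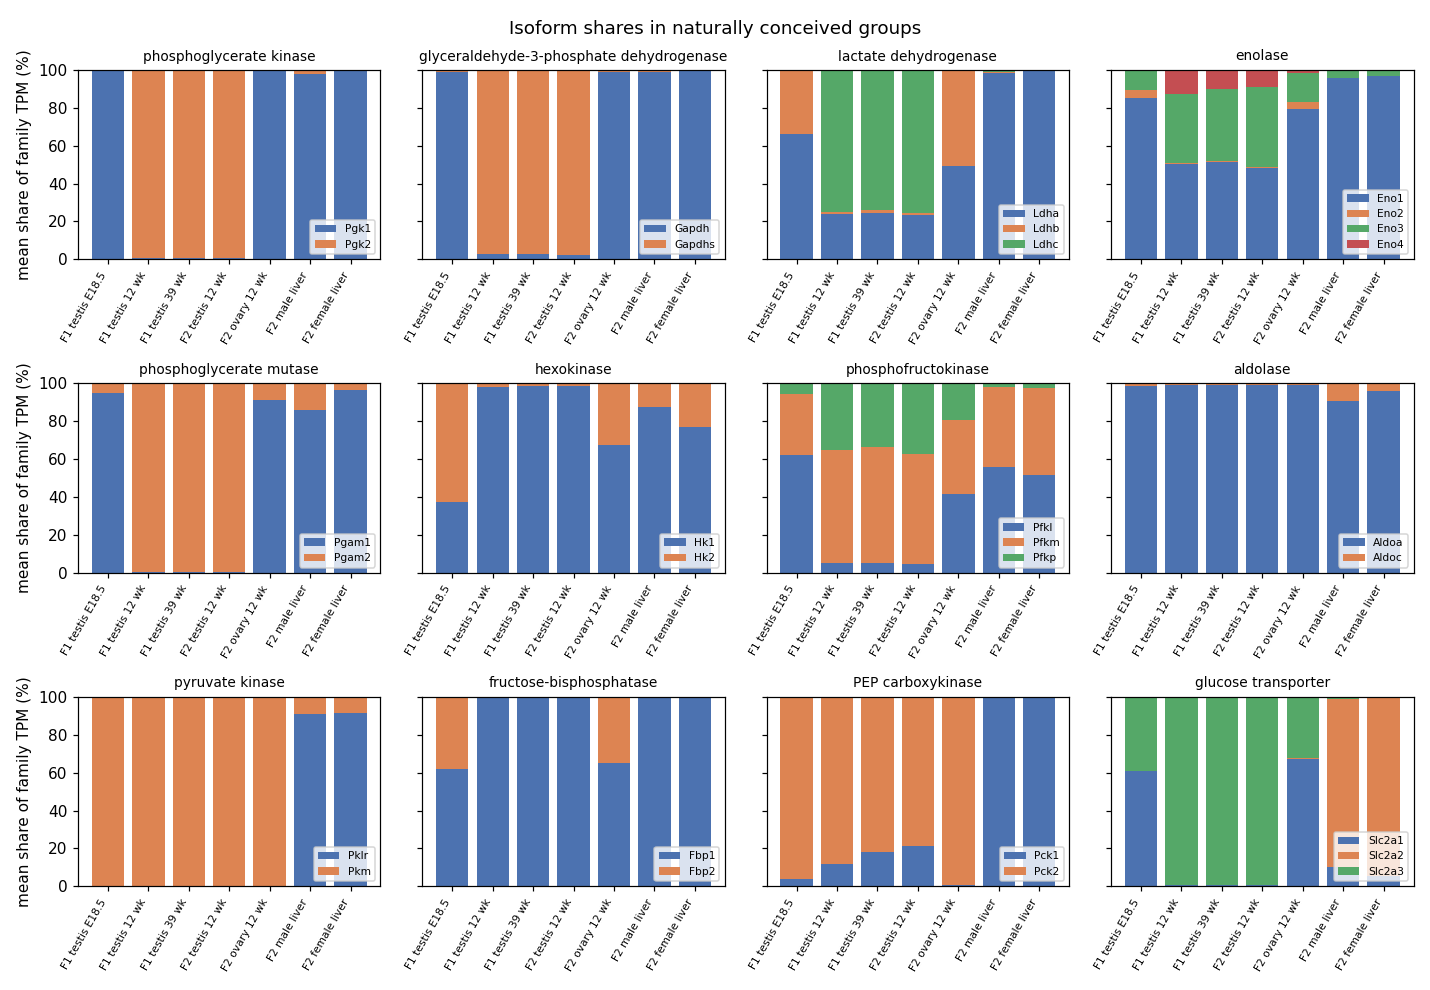
Mean share (%) of each isoform in the TPM of its family in the natural groups, for 12 families (panels) and 7 experiments (bars, each starting at 0). Pgk2, Gapdhs and Pgam2 take nearly the whole bar in the 3 adult testis groups, and Pklr, Pck1 and Slc2a2 do so in the livers.

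These differences were tested in one edgeR fit of the natural libraries of all 7 experiments, where a call needed more than a 1.5-fold change and an adjusted p below 0.05. The tables were made as separate experiments, so tissue and preparation cannot be told apart. In 12-week against E18.5 testis 14 members were called higher and 13 lower of 36 tested, where 40.3% of all genes were called higher and 33.4% lower. The 14 that rose were Hk1, Gpi1, Pfkm, Pfkp, Fbp1, Tpi1, Gapdhs, Pgk2, Pgam2, Eno3, Eno4, Ldha, Ldhc and Slc2a3. The call of Tpi1 (1.03, SE 0.18) rests on the scale of this fit, since its TPM were 572 ± 114 at E18.5 and 491 ± 27.6 at 12 weeks. Ldhc rose by 10.22 on the log2 scale (SE 0.92, adjusted p = 6.31e-11), Pgam2 by 9.97 (SE 0.52, adjusted p = 3.00e-17) and Gapdhs by 9.25 (SE 0.69, adjusted p = 5.34e-13). Pgk1 changed by -2.08 (SE 0.21), Gapdh by -1.92 (SE 0.18) and Pgam1 by -1.97 (SE 0.18), all 3 called lower. The other 10 called lower were Eno2 (-3.66, SE 0.49), Pygl (-2.90, SE 0.17), Pck2 (-2.50, SE 0.25), Pfkl (-2.15, SE 0.18), Slc2a1 (-2.15, SE 0.23), Hk2 (-1.50, SE 0.18), Ugp2 (-1.07, SE 0.15), Ldhb (-0.64, SE 0.21), and Pklr and G6pc, which had few counts at both ages. At E18.5 the counts of Pklr were 14 in natural 1, the library with Alb, and 2 in every other natural. Aldoa (0.05, SE 0.17), Pkm (-0.05, SE 0.19) and Eno1 (0.30, SE 0.20) were not called, although their TPM went from 1429.7 ± 256 to 622 ± 12.6, from 748 ± 97.4 to 304 ± 13.2 and from 378 ± 111 to 197 ± 17.5. With total counts alone as the scale, 13 members were called higher and 18 lower. The median change of all genes was 0.17 in this fit and -0.61 with total counts alone as the scale, and that of the members was -0.22.

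In F2 testis against F2 male liver 16 of 36 members were called higher and 16 lower, where 49.4% and 32.4% of all genes were. The 16 higher were Hk1, Hk2, Gpi1, Pfkm, Pfkp, Aldoa, Gapdhs, Pgk2, Pgam2, Eno2, Eno3, Eno4, Pkm, Ldhb, Ldhc and Slc2a3, with Pkm (4.31, SE 0.20) and Pfkp (6.08, SE 0.17) among them. Naturals 1, 4 and 5 of the male livers, with spermatid transcripts, were in this fit. The lower set held Pfkl, Aldoc, Tpi1, Gapdh, Pgk1, Pgam1, Slc2a1, Pklr, Pck1, G6pc, Slc2a2, Gys2, Pygl, Pcx and Ugp2, which makes the sugar donor for glycogen. Fbp1 was also lower, by 1.46 on the log2 scale, although its TPM in the 2 tissues were 563 ± 56.6 and 763 ± 68.8. Tpi1 was in the lower set although its TPM were 455 ± 40.8 in testis and 441 ± 28.5 in male liver. The scale was uncertain here, since the median gene was 0.78 in this fit and 1.55 with total counts alone. In F2 ovary against F2 female liver 17 members were called higher and 10 lower, where 46.7% and 19% of all genes were, with a median gene at 0.92 (2.03 with total counts alone). The 17 higher were Hk1, Hk2, Pfkl, Pfkm, Pfkp, Aldoa, Gapdhs, Pgam1, Pgam2, Eno2, Eno3, Eno4, Pkm, Ldhb, Pck2, Slc2a1 and Slc2a3, and the 10 lower were Fbp1, Pklr, Ldha, Pck1, G6pc, Pcx, Slc2a2, Gys2, Pygl and Ugp2. Pck2 differed by 4.82 (SE 0.31) and Fbp1 by -8.95 (SE 0.29). Pcx was in the lower set, although its TPM were 201 ± 66.4 in ovary and 128 ± 29.7 in female liver. Gapdhs was higher in ovary by 2.87 (SE 0.65, adjusted p = 2.81e-04) and Eno4 by 3.80 (SE 0.84), while Pgk2 and Ldhc were not called there. Natural ovary 2 had 13.9 TPM of Eno4 and the other 3 naturals 1.01 to 1.68.

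IVF was then compared with natural conception within each experiment. In testis no member was called at any age or in either generation by edgeR, and at 12 weeks IVF testes had 75.6% ± 0.424 Ldhc and 99.4% ± 0.108 Pgk2 in their families. At E18.5, 31 members were tested and 0 called, where 0.221% of all genes were called. The unadjusted p was under 0.05 for 7 members, and DESeq2 also called 0. Members ran 4 higher and 27 lower in IVF, with a median change of -0.15 on the log2 scale, against -0.00424 over all genes. Natural 1, the library with Alb, was the highest natural in Aldoa, Gapdh, Eno1 and Ldha, and without it 8 members were higher and 23 lower, with a median of -0.10. Gapdh changed by -0.20 with it and by 0.0069 without it, and Eno1 by -0.34 and -0.10. Marker sums also differed at E18.5. Sertoli markers were 3423 to 4452 CPM in naturals and 2515 to 3590 in IVF, with 0 of 8 higher on average in IVF. Genes of the granulosa list were 1225 to 1925 and 706.5 to 1098, with 1 of 6 higher. For Leydig and for spermatocyte markers 6 of 8 were higher. The part of cell composition in the member values was not tested. CPM of members are normalized with edgeR's TMM factors. Slc2a1 had 95.6, 66.9, 68.3 and 67.9 CPM in naturals and 55.6, 52.3, 51.8, 49.4, 53.9 and 61.5 CPM in IVF. The groups did not overlap, and the difference of -0.47 (SE 0.11) had an adjusted p of 0.0451 but was under the 1.5-fold limit. Without natural 1 it was -0.32, with an adjusted p of 0.0599. Pgam2 had 1.43, 1.64, 2.25 and 0.999 CPM in naturals and 3.51, 2.40, 2.18, 2.48, 3.14 and 3.40 in IVF. Its share of mutase TPM was 3.53% to 7.79% in naturals and 8.04% to 13.6% in IVF, ranges that did not overlap, while the test of its level gave an adjusted p of 0.245 (0.81, SE 0.35) on 3 to 10 counts per natural library. Gapdhs (0.30, SE 0.28), Ldhc (-0.07, SE 0.31) and Eno4 (-0.24, SE 0.42) had adjusted p-values from 0.619 to 0.932. Pgk2 was at 0 except for 4 counts in 1 IVF testis. Pgk2, Pklr, Pck1, G6pc and Slc2a2 did not pass the filter on low counts.

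At 12 weeks 30 members were tested and 0 called, where 0.199% of all genes were called. The unadjusted p was under 0.05 for 3 members, and DESeq2 called 0. Pgk2 was at 1320.4, 1320.2, 1475, 1354 and 1164 TPM in the 5 IVF testes, which overlapped the naturals given above, with a log2 fold change of 0.05 (SE 0.07). Ldhc changed by 0.10 (SE 0.06), Gapdhs by 0.04 (SE 0.05), Eno4 by -0.07 (SE 0.15) and Pgam2 by 0.14 (SE 0.06). Fbp2, Pklr, Pck1, G6pc, Slc2a2 and Gys2 did not pass the filter. Members ran 25 higher and 5 lower, with a median of 0.09 against 0.01 for all genes.

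At 39 weeks 30 members were tested and 0 called, where 0.00996% of all genes were called. The unadjusted p was under 0.05 for 3 members (Pfkm, Pgk2 and Ugp2), and DESeq2 called 0. Pgk2 had 844, 824, 641 and 680.2 CPM in the 4 naturals and 929, 1042, 957, 895, 847 and 969.7 CPM in the 6 IVF testes. The highest natural and the lowest IVF library lay next to each other without overlap. The log2 fold change was 0.33 (SE 0.11), which did not pass (adjusted p = 0.315). Its share of the family was 99.2% to 99.7% in naturals and 99.2% to 99.6% in IVF. Ldhc (0.08, SE 0.11) and Gapdhs (0.03, SE 0.11) had smaller differences. Summed spermatocyte markers were 828.8 to 1102 CPM in naturals and 1018 to 1154 in IVF, with 7 of 7 markers in the table higher on average in IVF. Sertoli markers were 661.3 to 783.1 and 822.7 to 1054 CPM, without overlap (6 of 8 higher). Gonocyte markers were 1196 to 1669 and 1546 to 1772 (6 of 6 higher), while 0 of 4 peritubular markers were higher. The part of these cells in the Pgk2 values was not tested. Eno2, Pklr, Pck1, G6pc, Slc2a2 and Gys2 did not pass the filter.

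In F2 testes 31 members were tested and 0 called, where 0.914% of all genes were called. The unadjusted p was under 0.05 for 4 members, and DESeq2 called 0. Pck2 had 2.64, 2.47, 3.17, 3.07 and 4.22 CPM in naturals, while the 7 IVF testes ran from 3.90 to 5.48 CPM with a median of 4.28. The ranges overlapped (log2 fold change 0.53, SE 0.15, adjusted p = 0.0887), and Pck2 was called once natural 5 was left out. Pgk2 (0.00, SE 0.04), Ldhc (0.02, SE 0.05), Gapdhs (0.07, SE 0.05) and Pgam2 (0.07, SE 0.06) had ranges that overlapped. The IVF share of Ldhc was 73.4% to 75.9% against 74.7% to 76.5% in naturals. Fbp2, Pklr, G6pc, Slc2a2 and Gys2 did not pass the filter.

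The IVF effect at 12 weeks was set against that at E18.5 by an interaction term. Of 35 members tested, 0 were called by edgeR, where 2.73% of all genes were called, and 10 had an unadjusted p under 0.05. The 35 include Pck1, Pklr and G6pc, which passed the filter at neither age, Pgk2, which did not pass it at E18.5, and Fbp2 and Gys2, which did not pass it at 12 weeks, so their interaction terms have little to compare. Aldoa, the aldolase that splits the sugar backbone, had an interaction of 0.52 (SE 0.15, adjusted p = 0.0381), under the 1.5-fold limit, from effects of -0.37 at E18.5 and 0.16 at 12 weeks. Without natural 1 of E18.5 the interaction was 0.20 (adjusted p = 0.388) and the E18.5 effect -0.23. Pgam2 had -0.65 (SE 0.28, adjusted p = 0.188).

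In F2 ovary 30 members were tested and 0 called, where 0% of all genes were called by edgeR (1757 genes had an unadjusted p under 0.05, and DESeq2 called 90). The unadjusted p was under 0.05 for 2 members (Fbp2 and Aldoa), and DESeq2 called 0 members. Pgk2, Pklr, Pck1, G6pc, Slc2a2 and Gys2 did not pass the filter. Members ran 14 higher and 16 lower, with a median of -0.03. Gapdh had 588, 507, 629.7 and 730.3 CPM in naturals and 581, 572, 824, 686 and 593 in IVF, which overlapped (0.09, SE 0.14). Pkm, the pyruvate kinase of ovary, changed by 0.10 (SE 0.08) and Ldhb by -0.23 (SE 0.14). Eno4 (-1.38, SE 0.74) and Slc2a3 (-1.07, SE 0.58) were lower on average, and both were high in natural ovary 2, at 13.9 and 39.3 TPM against at most 2.05 and 9.43 in the other 8 libraries.

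**Figure D3:**
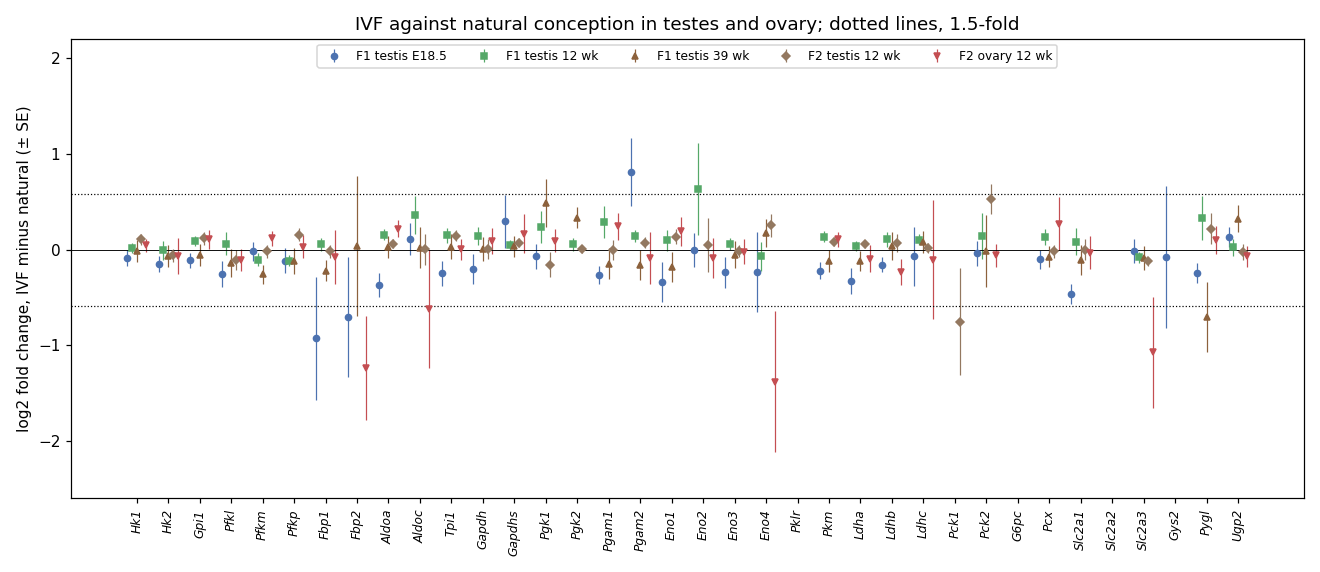
Log2 fold change of IVF against natural conception (points, with SE bars) for each member tested in the 4 testis experiments and in ovary, with dotted lines at 1.5-fold. Most points lie between the lines, and those outside them (Fbp1, Fbp2 and Pgam2 at E18.5, Eno2 at 12 weeks, Pygl at 39 weeks, Pck1 in F2 testis, and Fbp2, Aldoc, Eno4 and Slc2a3 in ovary) have wide bars.

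The livers of the F2 animals were the tissue in which members differed with the conception of the sire. In F2 male livers 28 members were tested, 1 was called higher and 11 lower in IVF, where 13.9% and 17.2% of all genes were called. The 8 that did not pass the filter were Hk2, Fbp2, Pgk2, Pgam2, Eno2, Eno4, Ldhc and Slc2a3. The 11 lower were Pfkl, Pfkm, Aldoc, Tpi1, Gapdh, Gapdhs, Pgk1, Pgam1, Eno1, Eno3 and Pcx, which takes in an isoform at each step from phosphofructokinase to enolase and the first step of gluconeogenesis. At the aldolase step this was Aldoc (mean of 16.7 TPM in naturals and 5.82 in IVF), while Aldoa (161 and 97.5) was not called. With the GC trend removed, Pgk1 alone of the 11 was called. Gapdh had 573, 403, 439.9, 564 and 546 CPM in naturals and 329.5, 160.5, 159, 285 and 345 CPM in IVF. Every IVF liver lay below every natural one, and the test gave a log2 fold change of -0.97 (SE 0.23, adjusted p = 0.00416). Pcx had 563, 612, 636, 586 and 583 CPM in naturals and 291, 141, 178, 445 and 271 in IVF, also without overlap (log2 fold change -1.16, SE 0.24, adjusted p = 0.00214). Eno1 had 107 to 168 CPM in naturals and 57.9 to 90.4 CPM in IVF (log2 fold change -0.80, SE 0.17, adjusted p = 0.00206), a change that turned to 0.082 with the GC trend removed. IVF 2 and 3, the libraries of fewest counts in this tissue, were the lowest for Gapdh, Pgk1, Pgam1 and Pfkm. They were also the lowest for Pcx, Eno1, Tpi1, Eno3 and Gapdhs. Among the lower calls only Pfkl and Aldoc were not lowest in both.

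Tpi1, which interconverts the triose phosphates, had 298 to 363 CPM in naturals and 112 to 246 CPM in IVF, and its log2 fold change was -0.77 (SE 0.22). Pgam1 had 22.1 to 26.8 CPM in naturals and 4.82 to 19.9 CPM in IVF, and Pgk1, at 65.8 to 81.0 CPM in naturals and 19.3 to 66.0 CPM in IVF, overlapped by 1 IVF liver. Eno3 was low in every library, at 2.60 to 4.61 CPM in naturals and 0 to 1.70 CPM in IVF. The remaining called members were Aldoc (-1.05, SE 0.35), Pfkm (-0.64, SE 0.21) and Pfkl (-0.64, SE 0.21), each lost when some single library was left out. Pfkl turned to 0.12 with the GC trend removed.

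Gys2 was the only member called higher in IVF males. It had 86.8, 80.3, 84.5, 136 and 109.5 CPM in naturals and 241, 369, 161, 278 and 249.6 in IVF, with every IVF liver above every natural one (log2 fold change 1.40, SE 0.21, adjusted p = 2.54e-04). Pck1 and G6pc, which mark the liver as a producer of glucose, were not called, while Pcx was among the lower calls. Pck1 had 862 to 3328 CPM in naturals and 1048 to 4338 CPM in IVF (0.49, SE 0.49) and G6pc 180.3 to 358 CPM in naturals and 22.0 to 612.6 CPM in IVF (0.25, SE 0.71). Both spread more between libraries than between groups. Fbp1 (-0.18, SE 0.15), Pygl (-0.28, SE 0.18), Slc2a2 (0.13, SE 0.15), Pklr (-0.49, SE 0.24) and Ldha (-0.60, SE 0.25) were not called either.

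Gapdhs in male liver had 9.93, 1.13, 1.33, 2.59 and 17.0 CPM in naturals and 0.866, 0, 0, 1.60 and 1.52 in IVF (log2 fold change -2.43, SE 0.88, adjusted p = 0.0498). Naturals 1 and 5 were the high libraries, and the ones with the most spermatid transcripts. Prm1, a protamine that packs DNA in sperm, was at 17.5, 0.0559, 0, 3.04 and 30.1 CPM of total counts in naturals 1 to 5. Ldhc was at 6.35, 0, 0.115, 1.89 and 10.6 CPM in the same livers, Pgk2 at 2.26, 0, 0, 0.602 and 5.22, and Hk1 at 10.3, 2.46, 1.96, 4.79 and 16.6. In IVF male livers summed spermatid markers were 0 to 3.55 CPM. The call of Gapdhs was lost without natural 1 and without natural 5. Without naturals 1, 4 and 5, an alternative chosen after seeing the data that leaves 2 naturals, none of the 11 lower calls was left and Gys2 was still called. The folds stayed near their size for Pcx (-1.19), Tpi1 (-0.71), Pgam1 (-0.72) and Eno3 (-1.31), and that of Gapdhs was -0.11. In naturals 2 and 3 Gapdh was at 403 and 440 CPM and Eno1 at 107 and 120, above every IVF liver. Pfkm and Aldoc were also above every IVF liver there, while Pgk1 and Pfkl overlapped with IVF.

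In F2 female livers the direction was the opposite. Of 29 members tested, 12 were called higher and 1 lower in IVF, where 21.6% and 17.8% of all genes were called. The filter removed the same genes except Hk2. The 12 were Hk1, Pfkl, Tpi1, Gapdh, Gapdhs, Pgk1, Pgam1, Eno1, Eno3, Pklr, Ldha and Pcx. With the GC trend removed, Pgk1 and Ldha were the only members called in females. Pcx had 209, 345, 245, 296 and 215 CPM in naturals, while the 6 IVF livers ran from 595 to 773 with a median of 688. All IVF livers were above all naturals (log2 fold change 1.40, SE 0.16, adjusted p = 1.50e-05). Gapdh had 188 to 272 CPM in naturals and 342 to 561 CPM in IVF (log2 fold change 1.03, SE 0.16, adjusted p = 1.16e-04) and Eno1 58.8 to 92.4 CPM in naturals and 114 to 221 CPM in IVF (log2 fold change 1.09, SE 0.16, adjusted p = 8.11e-05), without overlap. Ldha had 299 to 405 CPM in naturals and 433 to 986 CPM in IVF (log2 fold change 0.98, SE 0.20, adjusted p = 9.36e-04), and IVF 1 to 4 were well above IVF 5 and 6. Pklr, at 93.4 to 144 CPM in naturals and 137 to 227 CPM in IVF, overlapped by natural 1 (0.60, SE 0.17). Tpi1 had 117 to 208 CPM in naturals and 280.5 to 370.2 CPM in IVF (log2 fold change 0.91, SE 0.15, adjusted p = 1.54e-04). The other called members were Pfkl (1.04, SE 0.17), Pgam1 (0.91, SE 0.16), Pgk1 (0.75, SE 0.20), Hk1 (0.88, SE 0.28) and Eno3 (1.55, SE 0.52), with Hk1 at 1.22 to 2.39 CPM in naturals and 2.70 to 4.70 CPM in IVF and Eno3 at 0 to 2.26 CPM in naturals and 1.55 to 4.58 CPM in IVF.

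Gys2 was the member called lower in IVF females, with 268, 258, 198, 164 and 235 CPM in naturals and a range of 108 to 190.2 in IVF (log2 fold change -0.70, SE 0.17, adjusted p = 0.00345). The highest IVF liver lay above the lowest natural. Pck1 had 1712 to 4123 CPM in naturals and 1087 to 4106 CPM in IVF (-0.06, SE 0.30) and G6pc 231 to 452 CPM in naturals and 28.7 to 940.1 CPM in IVF (-0.27, SE 0.75), again with wide overlap. Fbp1 (0.11, SE 0.13), Pygl (0.14, SE 0.13) and Slc2a2 (-0.18, SE 0.14) had differences with SEs of about their own size and were not called. Gpi1, Aldoa and Ugp2 passed the adjusted p but not the fold limit. Gapdhs in female livers was at 0 to 0.678 CPM in naturals and 0.828 to 1.55 CPM in IVF, from 0 to 21 counts per natural library and 23 to 88 per IVF library, and was lost when single libraries were left out. Summed spermatid markers there were at most 1.01 CPM. Other marker sums moved with conception in these livers. Summed hepatocyte markers were 140400 to 226400 CPM in naturals and 115100 to 138700 in IVF, without overlap, although 5 of 8 markers had the higher mean in IVF. Erythroid markers were 436 to 628 CPM and 168 to 421 (3 of 6 higher in IVF), and genes of the Sertoli list were 1125 to 1441 and 1480 to 1805 (7 of 8 higher), again without overlap. None of the hepatocyte or erythroid markers was at 0, and the part of these cells in the calls was not tested.

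**Figure D4:**
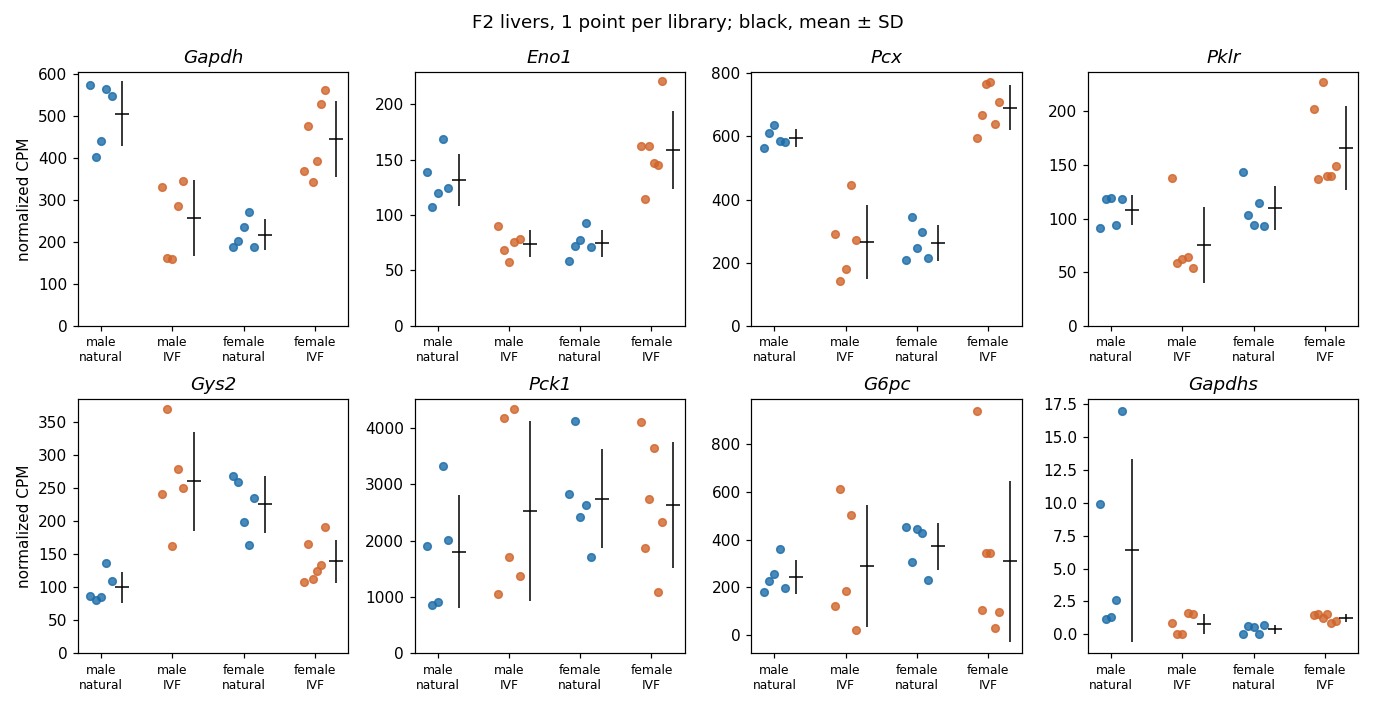
Normalized CPM of 8 members in F2 livers, 1 point per library (blue, naturals, orange, IVF), with the mean and SD in black. Gapdh, Eno1 and Pcx are lower in IVF males and higher in IVF females without overlap, Gys2 goes the opposite way, and Pck1 and G6pc overlap in both sexes.

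The opposite directions were put to an interaction term of sex and conception, with the 21 livers fitted together. Of 30 members tested, 1 was called higher in the male minus the female effect and 16 lower, where 25.2% and 27.7% of all genes were called. The interaction was -2.56 (SE 0.30, adjusted p = 1.05e-07) for Pcx, -2.01 (SE 0.29, adjusted p = 2.00e-06) for Gapdh, -1.90 (SE 0.24, adjusted p = 2.40e-07) for Eno1 and 2.08 (SE 0.28, adjusted p = 8.04e-07) for Gys2. The called members include Pgam2, which had passed the filter in neither sex alone and had 14 to 58 counts in natural males, 0 to 6 in IVF males, 0 to 4 in natural females and 0 to 38 in IVF females. The interaction was not called for Pck1 (0.54, SE 0.62), G6pc (0.51, SE 1.07), Fbp1 (-0.30, SE 0.19), Pygl (-0.42, SE 0.22) or Slc2a2 (0.30, SE 0.20). The median over the members was -0.49 in males and 0.60 in females, against -0.01 and -0.01 over all genes.

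**Figure D5:**
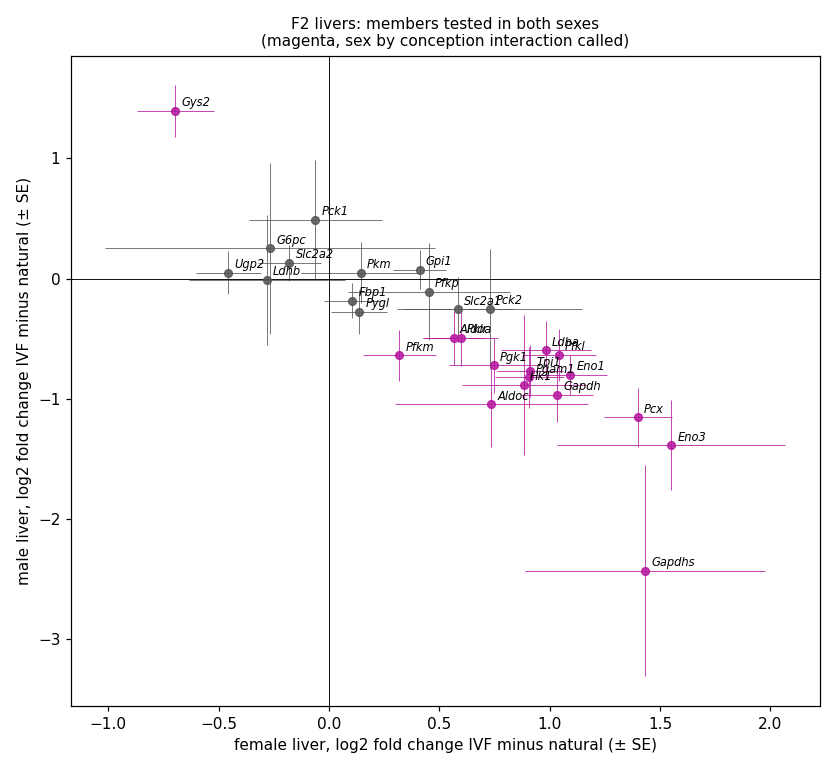
Log2 fold change of IVF against natural conception in F2 male liver (vertical) against F2 female liver (horizontal), with SE bars, for the members tested in both sexes. The called interactions (magenta) run from Gys2 at upper left to Gapdhs at lower right, and members such as Pkm, Fbp1 and Pygl lie near the origin.

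The liver differences moved with 3 properties of the libraries. The share of counts on symbols with a GENCODE M21 exon length was 96.1% to 97.6% in natural and 68.4% to 95.0% in IVF male livers (75.8% and 68.4% in IVF 2 and 3), and 87.6% to 96.3% in natural and 96.4% to 97.9% in IVF female livers, without overlap in either sex. The GC content of a transcript was related to its change in both sexes. Over the members Spearman's rho of GC content and log2 fold change was -0.52 in males (n = 28) and 0.57 in females (n = 29), and over all genes with a value it was -0.61 and 0.72. These are descriptions over genes of the same libraries. Gys2 has 48.1% GC, and the members called in the other direction had a median of 54.7% in males and 54.7% in females. With the GC trend of each library removed, 3 members were called in males, namely Gys2, Pgk1 and Pkm, and 2 in females, namely Pgk1 and Ldha. The study's mapping rates were lower in IVF males and lower in natural females, and a fit that took the rate as a covariate called 2 members in males (Gys2 and Eno1) and 3 in females (Gapdh, Eno1 and Pcx). The interaction was called for 12 members with the GC trend removed and for 7 with the mapping rate in the fit. The part of these properties in the calls was not tested.

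A second list of 40 genes of the same path (further hexokinases, the 6-phosphofructo-2-kinases, glycogen enzymes, the pyruvate dehydrogenase complex, lactate, pyruvate and glucose carriers, and a few regulators) was run beside the members. None of its genes was called in testis at E18.5 (38 tested), 12 weeks (39), 39 weeks (38) or in F2 (39), nor in ovary (36), though 4 to 6 had an unadjusted p under 0.05 in each. In male livers 5 higher and 4 lower of 33 tested were called, where 13.9% and 17.2% of all genes were, and in female livers 8 higher and 3 lower of 35 tested, where 21.6% and 17.8% were. The interaction was called for 8 higher and 8 lower of 35 tested, beside 25.2% and 27.7% of all genes. The median change of the list was -0.02 in males and 0.19 in females. Between fetal and adult natural testis the list had 18 higher and 16 lower of 40 tested, beside 40.3% and 33.4% of all genes.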

How the data were processed

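Total RNA was sequenced as poly(A) libraries. The authors deposited counts per gene symbol, 1 table per experiment, made with Trimmomatic 0.32, STAR 2.3.0e and featureCounts 1.5.0 on mm10 per the submitters' processing notes. Both mates of a pair appear to have been counted, since 60.0% to 94.3% of low counts were even. How reads matching several places were counted is not given in the sources used here. Groups came from the labels. In R 4.3.3, edgeR 4.0.16 (TMM scaling, filterByExpr by group, robust quasi-likelihood test) was fitted to all genes of each table, and Benjamini-Hochberg adjusted p-values cover all genes tested. A gene was called at an adjusted p under 0.05 with over 1.5-fold change. Interactions and tissue contrasts used joint fits. Normalized CPM were on the TMM scale, and TPM used GENCODE M21 basic exon lengths. A prior count of 2 entered only the GC correction. Log2 fold changes used edgeR's smaller default, so those of members near 0 counts are little shrunken. All 36 members were accounted for, and those called, the germ-cell isoforms, their somatic partners and the liver enzymes were named, most of them with values. Other pathway genes were given by counts. The members and lists were chosen with earlier results of these data known. DESeq2 1.42.0, other filters and scalings, a GC correction, thinning, mapping rates, the replicate block and leaving out libraries were the alternatives. The models were checked on simulated counts with a fixed dispersion and no GC, mapping or admixture differences between libraries. That check says nothing about calls that move with those properties. Promoters came from RefSeq. Total counts of 543745 to 90441392 per library set the precision. No deposited column of the authors' own comparisons was used. In same-numbered samples, deviations were not correlated over 0.1 in every pair of any experiment, so numbers were not taken to pair samples.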

Additional observations from a re-analysis of the deposited data

Results flagged for a closer look

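Of 119 groups of 4 to 7 libraries examined, 11 had a library far from the others, where chance flags about 1 in 20 groups. That rate does not hold for the 5 groups whose other libraries are all at 0 (4 of Pgk2 and 1 of Ldhc), in which any count stands apart. In male liver, IVF 3, the library of fewest counts, had 0 CPM of Eno3, against 1.24 to 1.70 in the other 4. Pgk2 had a share of 0.634% in IVF 6 of E18.5 testis, 0.197% in natural 5 and 0.313% in IVF 2 of female liver and 0.317% in natural 1 of ovary, each from 2 to 8 counts where the group was otherwise at 0. Within the libraries of the same conception and tissue, the share of Gapdhs was lowest in IVF 2 of E18.5 testis at 1.17%. In the same sense it was lowest in natural 4 of ovary at 1.21% and highest in IVF 5 of ovary at 2.36%. Natural 1 of female liver had 0.272% Ldhc and 0.968% Eno4, each from 2 counts. Natural 2 of ovary had 5.40% Eno4, against 0.387% to 0.824% in the other 3.

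The effect of IVF differed between male and female livers for 17 members by the interaction term. The male minus female difference was positive for Gys2 (2.08) and negative for Hk1 (-1.79), Pfkl (-1.68), Pfkm (-0.97), Aldoa (-1.07), Aldoc (-1.80), Tpi1 (-1.69), Gapdh (-2.01), Gapdhs (-3.86), Pgk1 (-1.47), Pgam1 (-1.74), Pgam2 (-3.97), Eno1 (-1.90), Eno3 (-2.95), Pklr (-1.10), Ldha (-1.59) and Pcx (-2.56). With the GC trend removed the difference turned positive for Pfkm (0.12), Aldoa (0.58) and Pklr (0.041). Gapdhs, Pgam2 and Eno3 rest on low counts, and Pgam2 had passed the filter on low counts in neither sex alone. In natural male livers 1 and 5, which held the most spermatid transcripts, Gapdhs was at 9.93 and 17.0 CPM, Pgam2 at 3.39 and 4.88 and Hk1 at 10.3 and 16.6, against 1.13 and 1.33, 1.03 and 0.808, and 2.46 and 1.96 in naturals 2 and 3. The part of those transcripts was not tested.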

How the results depend on the processing

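In testis and ovary 0 members were called under each alternative except 1 (Slc2a1) at E18.5 with no fold limit, 1 (Pck2) in F2 testis without natural replicate 5 (leave-one-out range 0 to 1), and in the age interaction 1 with no fold limit (Aldoa) and 0 to 1 with a library left out (Gapdhs without E18.5 natural 2, Pgam2 without E18.5 natural 3, IVF 2 or IVF 3, Slc2a1 without 12-week natural 4 or IVF 5). In male liver 12 members were called, 3 with the GC trend removed, 3 with the replicate block and GC, 7 thinned to the smallest library, 2 with the mapping rate as a covariate, and, chosen after seeing the data, 1 without naturals 1, 4 and 5 and 7 without IVF 2 and 3 (leave-one-out range 8 to 12). In female liver 13 became 2 with GC removed, 3 with the block and GC and 3 with the mapping rate (leave-one-out range 11 to 15). The interaction went from 17 to 7 with the mapping rate (leave-one-out range 16 to 19). With the replicate block the counts were 14, 12 and 17 and it changed no count elsewhere. The correlation of same-numbered samples gave no pairing. Directions reversed with the GC trend removed for Pfkl (0.12, block and GC 0.19) and Eno1 (0.082, block and GC 0.094) in male liver, and for Pfkm (0.12), Aldoa (0.58) and Pklr (0.041) in the interaction. With total counts alone Ldha reversed in testis against liver (0.71) and Pgk1 in ovary against liver (0.94). Pcx, called lower in ovary against liver, had 292 ± 99.8 normalized CPM in natural ovary and 262 ± 57.9 in natural female liver. Without length scaling shares moved to 99.4% (Pgk2, F2 testis), 1.43% (Gapdhs, ovary), 68.6%, 67.8% and 69.2% (Ldhc at 12 weeks, 39 weeks and F2), 15.2% and 11.1% (Eno4 at 12 weeks and F2), 92.2% (Pklr, male liver) and, for Pgam2, 2.50%, 99.0%, 99.0%, 98.9% and 4.49% (E18.5, 12 weeks, 39 weeks, F2 and ovary). The cause was not tested. Summing the pairs of closest libraries, an alternative added after seeing the data, left 0 members called. Depth limits IVF 2 and 3 of male liver most, and genes at 0 there allow up to 3 counts.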

Other observations

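Natural ovary 2 differed from the other 8 ovary libraries in several members that ovary uses little. Aldoc was at 40.3 TPM there and at most 12.2 in the others, Fbp2 at 6.88 against at most 2.11, and Pklr at 5.05 against at most 1.26. IVF ovary 1 had 13.6 TPM of Pck1, against at most 1.89 in the others. In E18.5 natural 1, the library with Alb at 360.2 CPM of total counts, Pck1 was at 3.68 CPM, Pklr at 3.22 and Slc2a2 at 1.84, each the highest of the 10 libraries.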
